A study of Drosophila melanogaster with 3 samples.

Results

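The regions described here are the 1367 peaks of the Mod(mdg4)BTB list that lie on U or Uextra, out of 7621 BTB peaks and 13819 peaks in all 3 lists. They were chosen by sequence name alone, 155 from U and 1212 from Uextra, with no use of their scores or of the other lists. The lists come from chromatin immunoprecipitation with sequencing in Kc167, a line of Drosophila melanogaster embryonic cells kept in serum-free medium. All 3 libraries came from formaldehyde-fixed Kc cells (1% for 10 min), and each used another antibody: against the Mod(mdg4)2.2 isoform, against Mod(mdg4)BTB for all isoforms, and against L(3)mbt. There was 1 library per antibody. No difference below therefore has a replicate check, and no p-value was computed. Intervals are 95% intervals that cover counting error only, and peaks are not independent replicates. The files hold peaks and not reads, so the depth of the libraries is unknown.

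Mod(mdg4) proteins share an N-terminal BTB domain, through which such proteins bind one another, and differ in their C-terminal parts. The 2.2 isoform joins Su(Hw) and CP190 at the gypsy insulator, and mod(mdg4) was also found as a modifier of position-effect variegation, the silencing of genes placed near heterochromatin. L(3)mbt carries MBT repeats, folds that bind methylated lysines, and is known as a tumour suppressor of the larval brain. The sequence names match release 5 of the fly assembly, in which U and Uextra collect scaffolds with no chromosome position. Much unplaced fly sequence is repeated DNA of heterochromatin. Neighbours on Uextra need not be neighbours in the genome, since it is made of many small scaffolds set end to end. The sources used here do not name the build itself. DNA sequence and gene annotation for these positions were not used here, so the peaks are given by position, counted from 1.

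Most BTB peaks in unplaced sequence stood alone. A peak was counted as meeting another list when it shared at least 1 bp with a peak of it. Of the 1367 peaks, 999 met neither 2.2 nor L(3)mbt (73.1%, 95% Wilson interval 70.7 to 75.4%), against 42.9% of all BTB peaks. A further 227 met 2.2 only (16.6%, 14.7 to 18.7%), against 26.4% of all BTB peaks. L(3)mbt only was met by 61 (4.46%, 3.49 to 5.69%), against 23.8% of all BTB peaks. The remaining 80 met both (5.85%, 4.73 to 7.22%), against 6.82% of all BTB peaks. On the 5 long arms, that is X and both arms of chromosomes 2 and 3, 35.9% of 6144 peaks met neither (34.7 to 37.1%). In placed heterochromatin and on chromosome 4, which held few BTB peaks, most met neither as well, 46 of 75 (61.3%, 50.02 to 71.5%) and 24 of 35 (68.6%, 52.0 to 81.4%).

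In all, 307 unplaced BTB peaks met 2.2 (22.5%, 20.3 to 24.7%), against 33.2% of all BTB peaks. The share on the long arms was 35.7% (34.5 to 36.9%), so unplaced peaks met 2.2 less often by 13.3 percentage points (difference -13.3, Newcombe interval -15.7 to -10.7). L(3)mbt met 141 unplaced peaks (10.3%, 8.81 to 12.0%), against 30.7% of all BTB peaks and 35.5% of those on the long arms (34.3 to 36.7%). Here the difference was -25.2 points (-27.1 to -23.1). U and Uextra did not part clearly for 2.2, which met 29 of 155 peaks on U (18.7%, 13.4 to 25.6%) and 278 of 1212 on Uextra (22.9%, 20.7 to 25.4%). The interval of that difference ran from -3.01 to 10.1 points. L(3)mbt was found at 6 peaks on U (3.87%, 1.79 to 8.19%) and 135 on Uextra (11.1%, 9.49 to 13.0%), a difference of 7.27 points (2.65 to 10.1).

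**Figure D1:**
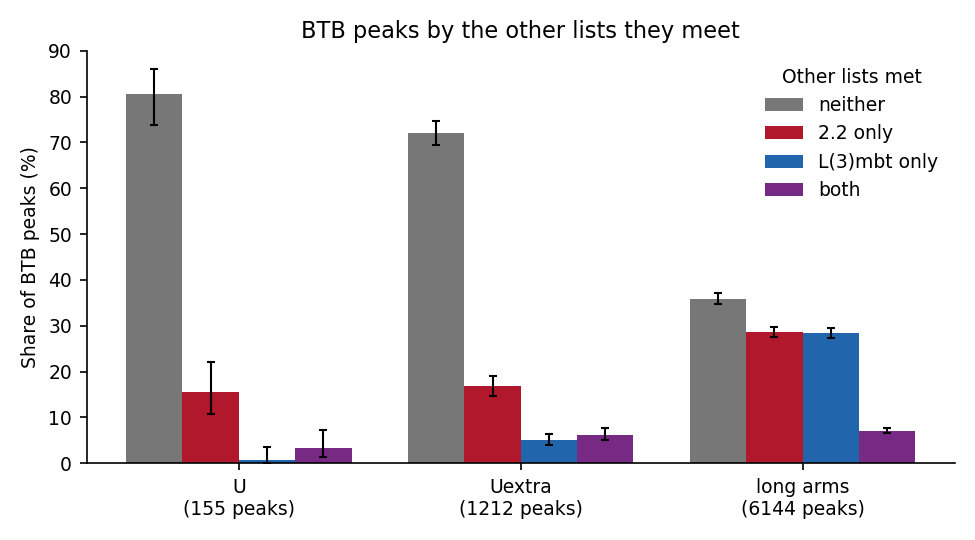
Shares of BTB peaks (%, vertical axis) on U, Uextra and the long arms that met neither other list, 2.2 only, L(3)mbt only or both; error bars are 95% Wilson intervals. The bar for neither stands at 80.6% on U, 72.1% on Uextra and 35.9% on the long arms.

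Placed heterochromatin, the heterochromatic sequence that has been assigned to chromosomes X, Y, 2 and 3, is the closest comparison but held only 75 BTB peaks. L(3)mbt met 8 of them (10.7%, 5.50 to 19.7%), and the difference of unplaced from placed peaks was -0.352 points with an interval of -9.47 to 5.09. For 2.2 the placed share was 33.3% (25 peaks, 23.7 to 44.6%), and unplaced peaks were lower by 10.9 points (difference -10.9, -22.3 to -0.982). With 75 peaks the limits are wide, and for L(3)mbt they leave room for a difference in either direction.

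Unplaced BTB peaks were weaker and narrower than those on the arms. The score is the authors' value for a peak from their peak caller, used here as a rank within the list, and values at or above 3100 were treated as tied. The median score was 252 (quartiles 145.5 and 598) and the median rank was the 28.9th percentile of the BTB list, with scores from 100.3 to 3188.5. Only 49 peaks were at or above 3100 (3.58%, 2.72 to 4.71%), against 25.7% of all BTB peaks and 30.7% on the long arms, a difference of -27.2 points (-28.6 to -25.6). Scores were also low in placed heterochromatin, with a median of 342.3 at the 36.8th percentile, against 870.3 at the 56.4th on the long arms. In placed heterochromatin 6 of 75 peaks were at or above 3100 (interval 3.72 to 16.4%). Low scores were thus not particular to unplaced sequence. Widths on U and Uextra ran from 149 to 2978 bp with a median of 540 bp. The median was 649.5 bp on the long arms and 652 bp in placed heterochromatin. Wide peaks were not strong peaks to the degree seen on the arms. Spearman's rho between width and score was 0.23 over the 1367 unplaced peaks and 0.61 over the 6144 arm peaks, given as a description of peaks from 1 library.

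Peaks were sparse on U, at 15.6 per Mb, and denser on Uextra, at 41.8 per Mb, against 51.8 on the long arms (the length of a sequence was set to the end of its last peak, whichever list held it). Placed heterochromatin was sparser than U, at 8.57 per Mb, and chromosome 4 held 26.4 per Mb. The median gap from a BTB peak to the next was 15065 bp on U, 7773 bp on Uextra and 4100 bp on the long arms. Runs of peaks with gaps of at most 1000 bp were few. They took in 113 of the 1367 unplaced peaks (8.27%, 6.92 to 9.85%) in 56 runs, and 24.8% of the arm peaks (23.7 to 25.9%). The longest unplaced run had 3 peaks, on Uextra at 1207468 to 1208123, 1208807 to 1209280 and 1210223 to 1210733. Their scores were low, at 116.8, 193.9 and 116.8, and none met 2.2 or L(3)mbt.

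The relation of the 2.2 isoform to BTB strength was not the one found on the arms. In unplaced sequence 2.2 met 142 of 567 BTB peaks scoring 100 to 200 (25.0%, 21.7 to 28.8%), 89 of 388 at 200 to 500 (22.9%, 19.0 to 27.4%), 62 of 363 at 500 to 3100 (17.1%, 13.6 to 21.3%) and 14 of 49 at or above 3100 (28.6%, 17.9 to 42.4%). Peaks scoring 500 or more met 2.2 less often than those at 100 to 200, by 6.60 points (difference -6.60, -11.7 to -1.33). On the long arms the same contrast was 27.1 points in the other direction (24.3 to 29.7). The weakest unplaced BTB peaks met 2.2 more often than equally weak arm peaks, 25.0% against 17.0% (difference 8.07 points, 3.99 to 12.3). At 500 to 3100 they met it less often, 17.1% against 41.3% (difference -24.2 points, -28.4 to -19.5). The lower share of 2.2 in unplaced sequence thus lay among peaks above a score of 200.

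The share with L(3)mbt differed little between BTB score bands. It met 9.88% of the unplaced peaks scoring 100 to 200 (7.68 to 12.6%), 10.6% at 200 to 500 (7.89 to 14.0%), 11.0% at 500 to 3100 (8.20 to 14.7%) and 8.16% at or above 3100 (4 of 49, 3.22 to 19.2%). The difference between peaks of 500 or more and those of 100 to 200 was 0.803 points (-2.99 to 4.81). In each score band the share was below that of the long arms, by differences of -21.1, -27.0, -23.5 and -29.7 points from the weakest band to the strongest, with the interval nearest zero at -17.3.

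**Figure D2:**
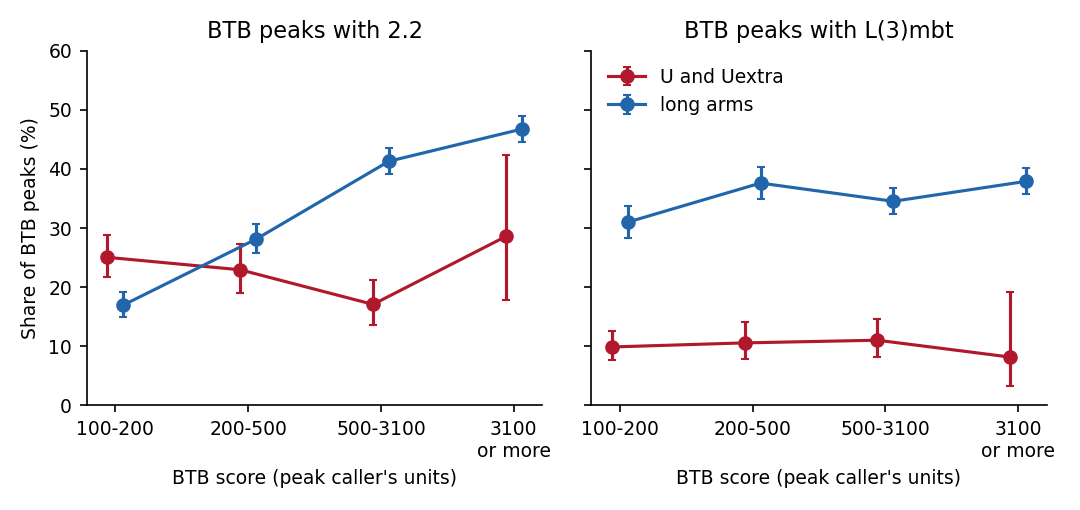
Share of BTB peaks (%, vertical axis) that met 2.2 (left) or L(3)mbt (right) by band of BTB score (horizontal axis, the peak caller's units) in U and Uextra and on the long arms; points are shares and bars 95% Wilson intervals. For 2.2 the arm share climbs from 17.0% to 46.7% while the unplaced share stays between 17.1% and 28.6%, and for L(3)mbt the unplaced points lie below the arm points in each band.

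Width separated the partners. Split at the median of 540 bp, the wider unplaced peaks met 2.2 in 206 of 683 cases (30.2%, 26.8 to 33.7%) and the narrower in 101 of 684 (14.8%, 12.3 to 17.6%), a difference of 15.4 points (11.0 to 19.7). A wide peak meets another by 1 bp more easily. With peaks set to 400 bp the share of all unplaced peaks with 2.2 was 20.1%. That share was not split by original width, so how far peak size alone makes this contrast was not tested. For L(3)mbt the share was 10.4% in the wider peaks and 10.2% in the narrower (difference 0.161 points, -3.08 to 3.41). By quartile of width, from narrow to wide, it was 13.7% (10.4 to 17.7%), 6.76% (4.55 to 9.95%), 9.09% (6.48 to 12.6%) and 11.7% (8.71 to 15.5%), so it was not even across widths. Peaks with 2.2 only had a median width of 637 bp and peaks with neither partner 526 bp. Those with both had a median of 525.5 bp, and those with L(3)mbt only 609 bp. In the narrowest quartile, at or under 471 bp, unplaced and arm peaks met 2.2 at 16.6% and 15.9% (difference 0.645 points, -4.54 to 5.98). In the next quartiles the unplaced share was lower, with differences of -16.4 (-20.6 to -11.6), -12.9 (-17.9 to -7.41) and -5.48 points (-10.5 to -0.0589). L(3)mbt was below the arms already in the narrowest quartile (difference -10.2 points, -15.6 to -4.68).

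The 2.2 isoform and L(3)mbt tended to meet the same unplaced BTB peaks. Where 2.2 was present, 80 of 307 BTB peaks also met L(3)mbt (26.1%, 21.5 to 31.2%), and where it was absent 61 of 1060 did (5.75%, 4.51 to 7.32%). Independent partners would have given 31.7 peaks held by both. On the long arms L(3)mbt was found at 19.9% where 2.2 was present (18.3 to 21.6%) and at 44.2% where 2.2 was absent (42.7 to 45.8%). Unplaced and arm peaks thus differed more where 2.2 was absent. Sites held by all 3 lists were not more common in unplaced sequence, at 5.85% against 7.10% on the arms. The odds ratio of unplaced peaks was 5.76 (exact conditional interval 3.95 to 8.44), where that of the long arms was below 1 at 0.313. Within unplaced sequence the ratio was larger at higher BTB scores, going from 3.47 at 100 to 200 (1.90 to 6.36) and 4.81 at 200 to 500 (2.34 to 10.0) to 14.8 at 500 or more (7.03 to 32.7). Among the strongest set, L(3)mbt was at 30 of 76 peaks with 2.2 (39.5%, 29.2 to 50.7%) and at 14 of 336 without (4.17%, 2.50 to 6.87%). The ratio of the odds ratios of the strongest and weakest sets was 4.31 (Woolf interval 1.75 to 10.6). These bands are of BTB score alone. When a score of at least 500 was required in all 3 lists, 5.34% of the 412 remaining peaks met 2.2 and 1.94% met L(3)mbt, and the interval of the odds ratio of 2.60 included 1 (0.0552 to 21.8).

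The odds ratio was larger among narrow peaks than among wide ones. At or under 540 bp it came to 15.2 (8.47 to 27.6). L(3)mbt met 42.6% of these narrow peaks where 2.2 was present (33.4 to 52.3%), and 4.63% where it was absent (3.20 to 6.65%). Above 540 bp it was 2.85 (1.68 to 4.85), so the ratio of the narrow to the wide odds ratio was 5.35 (Woolf interval 2.54 to 11.3). Arm peaks gave odds ratios of 0.151 at or under the same width (0.0965 to 0.229) and 0.309 above it (0.270 to 0.354), both below 1. In placed heterochromatin it was 2.17, with an interval of 0.366 to 12.8 from 4 peaks with both.

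**Figure D3:**
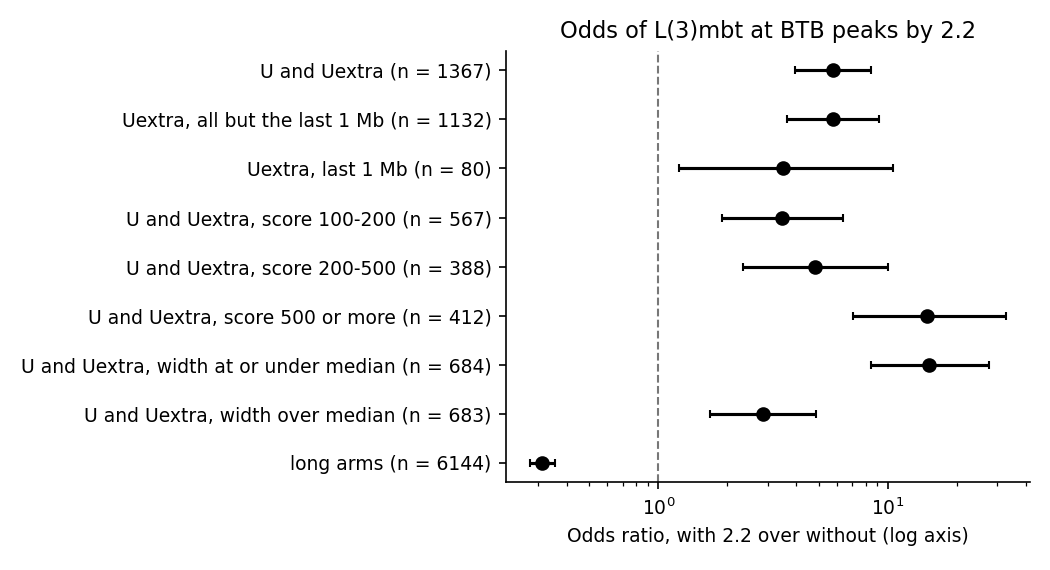
Odds ratio of L(3)mbt at BTB peaks with 2.2 over those without (horizontal log axis) for all unplaced peaks, parts of Uextra, score bands, width classes and the long arms; bars are exact 95% intervals and the dashed line marks 1. The 8 unplaced points lie between 2.85 and 15.2 with intervals above 1, and the long arms lie at 0.313.

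Where partners met, the BTB peak sat inside them. Of the 307 unplaced BTB peaks with 2.2, 295 lay wholly within the 2.2 peak (96.1%, 93.3 to 97.8%), and 132 of the 141 with L(3)mbt lay wholly within the L(3)mbt peak (93.6%, 88.3 to 96.6%). On the long arms these shares were 90.8% (89.5 to 91.9%) and 77.9% (76.1 to 79.6%), so the unplaced shares were higher by 5.34 points (2.31 to 7.43) for 2.2 and 15.7 points (10.2 to 19.2) for L(3)mbt. A BTB peak covered a median of 58.9% of the 2.2 peak and 56.5% of the L(3)mbt peak. Centres were a median of 69 bp apart for 2.2 (quartiles 30.5 and 135.8 bp) and 71 bp for L(3)mbt (38.5 and 150 bp), below the 200 to 300 bp to which the libraries were size-selected. On the long arms these medians were 47.5 bp and 164 bp. L(3)mbt lay within 200 bp of the BTB centre in 80.1% of unplaced pairs (72.8 to 85.9%) and 54.4% of arm pairs (52.3 to 56.4%), a difference of 25.8 points (18.1 to 31.9). L(3)mbt peaks in these pairs were also narrower in unplaced sequence, with medians of 1036 and 1436 bp, and the part of width in this difference was not tested. For 2.2 the difference was 4.38 points, with an interval of -0.677 to 8.75.

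**Figure D4:**
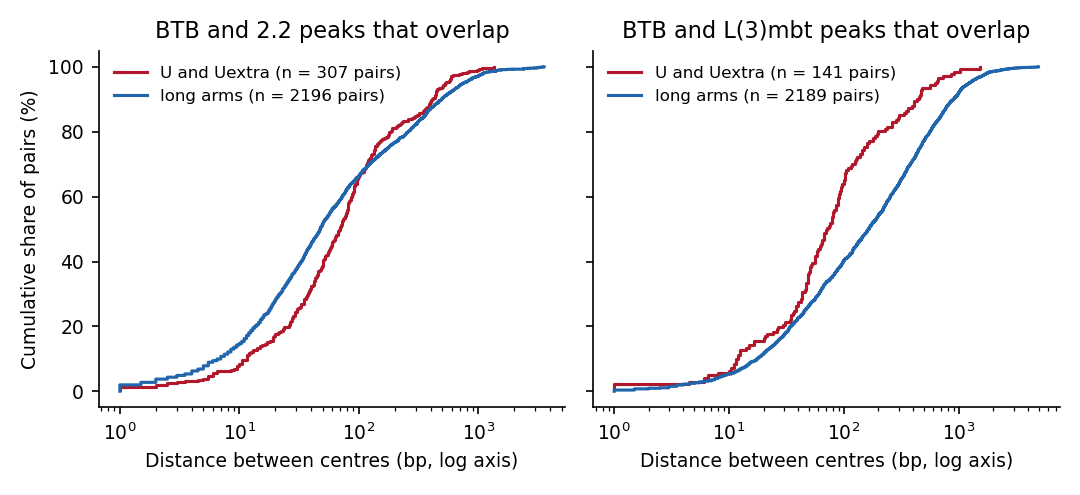
Cumulative share of overlapping pairs (%, vertical axis) by the distance between the BTB centre and the centre of the 2.2 peak (left) or L(3)mbt peak (right), in bp on a log axis (distances under 1 bp drawn at 1), for U and Uextra and for the long arms. The L(3)mbt curve of unplaced sequence rises earlier than that of the arms, with medians of 71 and 164 bp.

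The overlaps were not marginal. The smallest was 107 bp with 2.2 and 169 bp with L(3)mbt, both at the BTB peak on Uextra at 10825184 to 10825723. The nearest miss was a gap of 90 bp for 2.2 and 250 bp for L(3)mbt. Of the 1060 unplaced peaks without 2.2, 32 had a 2.2 peak within 1000 bp (3.02%), and of the 1226 without L(3)mbt, 24 had an L(3)mbt peak that near (1.96%). On the long arms these shares were 4.86% and 6.49%. L(3)mbt peaks were denser on the arms, at 24.4 per Mb against 11.1 in unplaced sequence. For 2.2 the densities were 18.5 and 15.5 per Mb, and on Uextra alone 18.9. The part of peak density in these shares was not tested. At the 80 peaks held by all 3 lists, the 2.2 and L(3)mbt peaks overlapped each other each time. Partners that wholly contain the same BTB peak must overlap, so that count was largely fixed by the choice of peaks. The 2.2 and L(3)mbt centres lay a median of 30.75 bp apart (quartiles 10.9 and 60.6 bp). The median distances from the BTB centre were larger, at 74.5 bp for 2.2 and 87 bp for L(3)mbt. Both lay on the same side of the BTB centre at 63 of the 80. Centres nearer to each other than to the BTB centre mostly fall on the same side of it. That count thus adds little to the distances.

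The partner peaks themselves ranked low in their lists. At unplaced BTB peaks lacking L(3)mbt the 2.2 peak scored a median of 176.7, and at those with L(3)mbt 218.5, at the 23.2nd and 30.4th percentiles of the 2.2 list. On the long arms the order was opposite, with median scores of 1872 without L(3)mbt and 449.5 with it. The L(3)mbt peak scored a median of 164.3 at unplaced BTB peaks without 2.2 and 232.2 at those with it, at the 24.1st and 39.6th percentiles. Scores of the paired peaks were loosely related for 2.2 (Spearman's rho 0.37 over 307 pairs) and not for L(3)mbt (-0.05 over 141 pairs), as a description. Of the 604 unplaced 2.2 peaks, 300 met BTB (49.7%, 45.7 to 53.6%), among them all 7 at or above 3100. This compares with 82.3% of all 2.2 peaks and 91.8% on the long arms (90.5 to 92.8%). Of the 433 unplaced L(3)mbt peaks, 135 met BTB (31.2%, 27.0 to 35.7%), against 61.5% of all L(3)mbt peaks and 66.3% on the long arms (64.5 to 68.0%). None of the 4 unplaced L(3)mbt peaks at or above 3100 met BTB, while 42 of 47 on the long arms did.

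The last 1 Mb of Uextra stood apart from the rest. Peaks centred beyond 28 Mb, over 3.46% of the spanned length of Uextra, made up 6.60% of its BTB peaks (80 of 1212, 5.34 to 8.14%), 17.2% of its 2.2 peaks (94 of 547, 14.3 to 20.6%) and 36.9% of its L(3)mbt peaks (154 of 417, 32.4 to 41.7%). L(3)mbt met 42 of the 80 BTB peaks there (52.5%, 41.7 to 63.1%) and 93 of the other 1132 on Uextra (8.22%, 6.75 to 9.96%), a difference of 44.3 points (33.3 to 55.0). For 2.2 the shares were 38.75% (31 peaks, 28.8 to 49.7%) and 21.8% (19.5 to 24.3%), a difference of 16.9 points (6.69 to 28.1). In the 28 windows of 1 Mb before it, the share with L(3)mbt ranged from 0 to 19.2% and that with 2.2 from 11.1 to 35.1%. The window was chosen after its values were seen.

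BTB peaks scored lower in this last window than in the rest of Uextra, and peaks of the other lists scored higher. No peak of any list there was at or above 3100. The median BTB score was 186.25 in the window and 248.9 in the rest of Uextra, with median widths of 450.5 and 541 bp. The median score of the 2.2 peaks was higher in the window than outside it (214.4 and 158.7), and so was that of the L(3)mbt peaks (306.2 and 189.4). BTB met 31 of the 94 2.2 peaks there (33.0%, 24.3 to 43.0%) and 240 of the other 453 (53.0%, 48.4 to 57.5%), a difference of -20.0 points (-29.8 to -8.99). The joint occurrence of the partners did not rest on this window. Without it the odds ratio in unplaced sequence was 6.28 (4.02 to 9.89), against 3.49 inside it (1.23 to 10.5), while the share of unplaced BTB peaks with L(3)mbt was 7.69% (6.36 to 9.28%) in place of 10.3%.

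**Figure D5:**
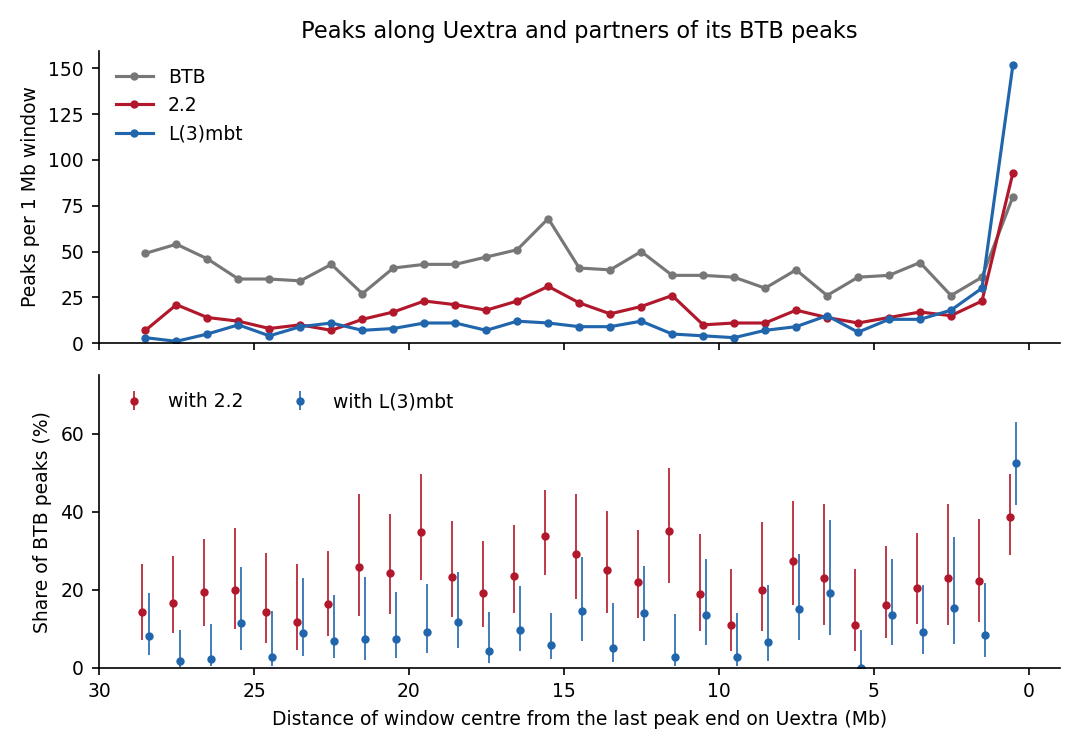
Top, peaks of each list per 1 Mb window of Uextra; bottom, share of BTB peaks (%) in each window that met 2.2 or L(3)mbt, with 95% Wilson intervals, both against the distance of the window from the last peak end (Mb, end of Uextra at the right). In the last window L(3)mbt has 152 peaks (2 more lie past its end), more than the 80 of BTB, and meets 52.5% of the BTB peaks.

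Single peaks show the range within each class. They were the 3 with the highest BTB score per class, ties broken by the partners' scores and then by width. Among peaks with neither partner these were Uextra at 361946 to 363486, at 25400409 to 25401871 and at 438854 to 440295, each scoring 3100 and 1442 to 1541 bp wide. All 34 peaks of this class at or above 3100 are tied and have no partner score, so the tie rule took these 3 for their width.

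Among peaks with 2.2 only, all 3 had a 2.2 peak at or above 3100, a score that the tie rule favours. They lay on U at 5687732 to 5688556, with the 2.2 centre 27.5 bp away, and on Uextra at 1789461 to 1790200 and 14899276 to 14900014, with the 2.2 centres 84 and 2 bp away. At each the BTB and 2.2 centres were thus no more than 84 bp apart.

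The 3 BTB peaks named for L(3)mbt only had weak L(3)mbt peaks, as did the 61 peaks of this class as a whole (median L(3)mbt score 164.3, quartiles 123.8 and 219.4). The BTB peak on Uextra at 16122745 to 16123677 scored 3100 and its L(3)mbt peak 112.5. Those at 10315001 to 10315862 and 17509018 to 17509773 scored 2964 and 2954 in the BTB list, and their L(3)mbt peaks 156.2 and 101.3.

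Among peaks with both partners, the one on Uextra at 771829 to 772960 scored 3100, but its 2.2 and L(3)mbt peaks (scores 379.7 and 886.5) were centred 1008 and 1029.5 bp away. Another BTB peak lay 85 bp beyond it. At 26834805 to 26835599 the BTB score was 3100, the 2.2 score 283.2 and the L(3)mbt score 397.3, with centres offset by -80.5 and -24 bp from that of BTB. At 14295421 to 14296167 the scores were 3100, 281.4 and 139.8. None of these 3 BTB peaks with both partners had a partner at or above 3100. The widest peak on each sequence met neither partner. On U it ran from 1094647 to 1097624 (2978 bp, score 529.5) and on Uextra from 170095 to 171976 (1882 bp, score 571.7).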

How the data were processed

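The authors deposited 3 lists of peaks, 1 per library, which were used as they stand. Bowtie 0.12.5 was the aligner named in the submitters' processing notes, and MACS is the caller whose naming style the deposited peaks follow. Each deposited peak carries a score of the authors, comparable only within a list. No source used here gives the caller's version and settings, the genome build or the handling of reads that align to several places. The last of these bears on repeated sequence in particular. The series' design text takes the control samples from an earlier study, which was not analysed here, and how the lists used them is not stated.

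Peaks were compared by overlap of at least 1 bp. Shares have Wilson intervals, differences of shares Newcombe intervals, odds ratios exact conditional intervals and ratios of odds ratios Woolf intervals, all at 95%. Ranks are percentiles of the score, tied at or above 3100. The code was tested on simulated peaks. Python 3.11.15, numpy 2.4.6, pandas 2.3.3, scipy 1.17.1 and matplotlib 3.10.9 were used. Alternatives changed the overlap rule, peak width, score minimum, sequence and joining of neighbours. Named peaks were the 3 highest BTB scores in each of 4 classes, the widest peak on U and on Uextra, and the longest run of peaks. On U the longest runs had 2 peaks. The members, tests and named-peak rule were chosen with earlier results of these data known.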

Additional observations from a re-analysis of the deposited data

How the results depend on the processing

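No paired analysis was possible because each antibody has 1 library, so no library could be left out either. Of 9 alternatives, 8 were set beforehand, and the one without peaks beyond 28 Mb of Uextra was chosen after seeing the data. No odds ratio fell below 1 and no difference from the long arms changed sign. For the share with 2.2 (22.5%), centres within 200 bp gave 18.2%, peaks set to 400 bp 20.1%, scores of at least 200 in all lists 12.4%, scores of at least 500 5.34% and U alone 18.7%. For the share with L(3)mbt (10.3%), the 200 bp setting gave 8.27%, scores of at least 200 4.88%, at least 500 1.94%, U alone 3.87% and U with Uextra less its last window 7.69%. The odds ratio was 18.7 with scores of at least 200 (8.83 to 41.5) and 25.2 on U alone (2.66 to 1241), but 2.60 with scores of at least 500, where the interval of 0.0552 to 21.8 includes 1. The difference in 2.2 share was -9.21 points with centres within 200 bp, -23.2 with scores of at least 200, -30.6 with at least 500 and -17.0 on U alone. That in L(3)mbt share was -11.1 points with centres within 200 bp, -16.4 with peaks set to 400 bp, -14.2 with scores of at least 500, -31.7 on U alone and -27.8 without the last window. The cause was not tested. Score minimums remove partner peaks of unplaced sequence, whose scores are low. Depth, control reads and the share of U and Uextra that reads can be aligned to are unknown, so absence of a peak need not mean absence of binding.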

Other observations

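In unplaced sequence the 2.2 isoform and L(3)mbt also overlapped at sites with no BTB peak. Of the 604 unplaced 2.2 peaks, 122 met L(3)mbt and not BTB (20.2%, 17.2 to 23.6%). Of the 433 unplaced L(3)mbt peaks, 121 met 2.2 and not BTB (27.9%, 23.9 to 32.4%). On the long arms these were 9 of 2195 2.2 peaks (0.410%) and 9 of 2890 L(3)mbt peaks (0.311%). L(3)mbt was strong at them, with a median score of 771 (the 78.6th percentile of its list), and all 4 unplaced L(3)mbt peaks at or above 3100 were among them. Their 2.2 peaks had a median score of 233.8, the 32.0th percentile. The nearest BTB peak lay a median of 5674.5 bp away (quartiles 2116 and 10247 bp), and 14 of the 122 had one within 1000 bp. Of these 122 sites, 56 lay in the last 1 Mb of Uextra. There 82.98% of the 2.2 peaks met L(3)mbt (74.1 to 89.2%), against 25.4% in the rest of Uextra (21.6 to 29.6%). The reverse share did not part clearly. In the window 77 of 154 L(3)mbt peaks met 2.2, and in the rest 115 of 263 did. That difference was 6.27 points, with an interval of -3.59 to 16.03. L(3)mbt peaks were denser in the window, at 153 per Mb against 9.39, and 2.2 peaks at 93.6 against 16.2. The part of peak density in the share of 2.2 peaks was not tested.

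Neighbouring BTB peaks along Uextra agreed little in their partners outside that window. After a peak with L(3)mbt, the next BTB peak also had L(3)mbt in 25.4% of cases over all Uextra (34 of 134, 18.8 to 33.4%) and after a peak without it in 9.38% (7.78 to 11.3%). Up to 28 Mb these shares were 9.78% (9 of 92, 5.23 to 17.6%) and 8.08% (6.58 to 9.90%). For 2.2 they were 25.6% (20.6 to 31.4%) and 20.8% (18.2 to 23.6%) up to 28 Mb. On U, 4 of the 5 BTB peaks with both partners lay in its last 1 Mb window, which held 26 BTB peaks.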
